A study of Mus musculus with 4 samples.

Results

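The immediate early genes Fos, Fosb, Jun, Junb, Egr1, Ier2, Dusp1, Atf3, Nr4a1 and Zfp36 are described here, taken by name as genes that tissue dissociation and cell sorting are known to induce. They were 10 of the 23366 gene symbols with read counts, and all 10 passed the filter on low counts, which kept 10865 genes. RNA sequencing compared medullary thymic epithelial cells (mTECs), the thymic stromal cells that present tissue antigens to developing T cells, between female and male mice. All mice were wild-type C57BL/6 animals aged 6 to 8 weeks. The mTECs were sorted as PI- CD45- MHCII+ Ly51low, that is, as live, non-haematopoietic cells with MHC class II and little of the cortical marker Ly51. Each library came from a pool of 10 mice, with 2 pools per sex, so the spread between individual mice was averaged within a pool and only the spread between pools can be seen. Every pool had passed through isolation of the stromal fraction and sorting, and cells left in the intact tissue were not part of the series, so induction by the procedure was not tested.

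Immediate early genes are transcribed within minutes of a stimulus without new protein synthesis, because the transcription factors that act on them, such as SRF, ELK1 and CREB, are already present and are switched on by kinases. Their products fall into a few roles. FOS and FOSB pair with JUN or JUNB to form the transcription factor AP-1, and ATF3 is a related factor of the stress response. EGR1 and NR4A1 are further induced transcription factors, NR4A1 being a target of antigen receptor signalling in lymphocytes. DUSP1 and ZFP36 belong to the feedback arm, the first by removing phosphate from the kinases that started the response and the second by binding AU-rich elements in short-lived mRNAs.

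The 10 genes together took 39483 of the 3508921 reads assigned to genes in female pool 1 and 17761 of the 1976272 in female pool 2. In males they took 54235 of 7103627 reads in pool 1 and 15076 of 3344471 reads in pool 2. Their share of the counted reads was 1.125% in female pool 1 (95% Wilson interval 1.114% to 1.136%) and 0.899% in female pool 2 (0.886% to 0.912%). It was 0.764% in male pool 1 (0.757% to 0.770%) and 0.451% in male pool 2 (0.444% to 0.458%), so both male pools lay under both female pools. The intervals cover counting error only. Counts were then scaled to a common library size with factors for library composition (TMM), which were 1.05, 1.03, 1.18 and 0.780 for female pool 1, female pool 2, male pool 1 and male pool 2, and the resulting unit is called normalized CPM. On this scale the sum over the 10 genes was 10733, 8789 and 6480 in female pool 1, female pool 2 and male pool 1, respectively, and 5805 in male pool 2. The mean of this sum was 9761 ± 1374 over the female pools and 6142 ± 477 over the male pools (SD, n = 2).

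The level of each gene relative to the others was compared per kilobase of merged exons (RPKM on the same scaling). Junb was highest with a mean of 817 RPKM over the 4 pools, followed by Zfp36 with 612, Fos with 588, Nr4a1 with 379, Dusp1 with 354, Ier2 with 309, Atf3 with 263, Egr1 with 173, Jun with 152 and Fosb with 23.8. Among the 10309 tested genes with a known length, Junb ranked 101st and Fosb 2195th, and the median rank of the 10 genes was 239. Only 3 neighbours in this order differed by more than the SD of their log2 difference over the 4 pools and in all 4 pools. Fos was above Nr4a1 by 0.61 ± 0.55 (log2 difference of RPKM, SD, n = 4), Atf3 above Egr1 by 0.53 ± 0.29 and Jun above Fosb by 2.65 ± 0.69. The other 6 neighbouring pairs did not differ beyond this spread. For example, Zfp36 exceeded Fos by only 0.05 ± 0.07, and Dusp1 exceeded Ier2 in 2 of 4 pools.

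**Figure D1:**
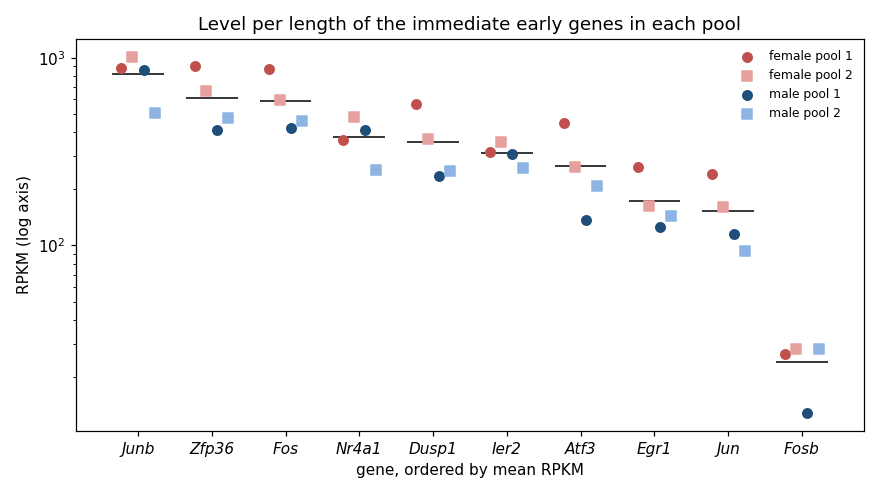
RPKM of each immediate early gene (y axis, log scale) in the 4 pools, with genes on the x axis in the order of their mean, which is drawn as a line. Points of the female pools lie at or near the top of most columns, and Fosb (mean 23.8 RPKM) stands far below the other 9 genes.

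Sequences before the start site are shown for 5 genes, because many response elements of this class sit close to the start. The sequences are those of RefSeq (table of build GRCm38.p6), placed on NCBIM37, the build of the counts, by exact match. They run 5′ to 3′ up to the base before the RefSeq start, except that of Dusp1, which was ended 47 bases earlier, where the NCBIM37 gene model begins (the last 7 bases shown for Atf3 also lie in its gene model). Motifs were searched on both strands in the 250 bases before the start, and matches to TGACG or its reverse complement CGTCA (the half-site of the cAMP response element, CRE) and to TATAAA are in capitals.
Fos (chr12:86814590-86814839, plus strand): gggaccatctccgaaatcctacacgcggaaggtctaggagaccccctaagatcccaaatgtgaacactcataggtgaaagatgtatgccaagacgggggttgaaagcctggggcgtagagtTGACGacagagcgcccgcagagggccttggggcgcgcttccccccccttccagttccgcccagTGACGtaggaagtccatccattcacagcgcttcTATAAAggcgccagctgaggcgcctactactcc
Junb (chr8:87502648-87502897, minus strand): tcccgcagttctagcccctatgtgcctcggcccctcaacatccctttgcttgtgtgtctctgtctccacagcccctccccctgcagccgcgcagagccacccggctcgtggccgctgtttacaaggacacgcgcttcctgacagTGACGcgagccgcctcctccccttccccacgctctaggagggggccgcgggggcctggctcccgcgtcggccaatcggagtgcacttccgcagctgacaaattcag
Atf3 (chr1:193007213-193007462, minus strand): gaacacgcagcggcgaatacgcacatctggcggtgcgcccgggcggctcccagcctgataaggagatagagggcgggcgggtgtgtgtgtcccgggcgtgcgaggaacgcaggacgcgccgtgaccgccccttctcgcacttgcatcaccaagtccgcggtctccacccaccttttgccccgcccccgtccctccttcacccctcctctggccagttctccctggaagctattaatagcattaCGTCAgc
Dusp1 (chr17:26645465-26645667, minus strand): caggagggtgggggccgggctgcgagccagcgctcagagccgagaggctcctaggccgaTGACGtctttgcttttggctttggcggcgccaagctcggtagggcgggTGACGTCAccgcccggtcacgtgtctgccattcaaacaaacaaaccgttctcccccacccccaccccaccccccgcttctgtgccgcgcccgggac
Nr4a1 (chr15:101097027-101097276, plus strand): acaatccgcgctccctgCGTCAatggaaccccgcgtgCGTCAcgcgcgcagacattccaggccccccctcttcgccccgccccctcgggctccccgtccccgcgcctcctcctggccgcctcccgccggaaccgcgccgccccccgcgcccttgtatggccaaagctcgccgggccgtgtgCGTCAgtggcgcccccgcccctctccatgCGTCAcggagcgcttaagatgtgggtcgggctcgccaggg
A promoter could be used for 8 of the 10 genes. TGACG was present in 6 of the 8, against 17.9% of 27025 promoters of the same length. These promoters were not limited to tested genes or matched for base composition, so enrichment was not tested. The matches were in Fos (2), Fosb (1), Junb (1), Dusp1 (3), Atf3 (1) and Nr4a1 (4). That of Atf3 lay within the 7 bases that belong to its gene model. The full CRE palindrome TGACGTCA, which contains the half-site on each strand, was found in Dusp1 and in 1.6% of all promoters. The AP-1 site TGACTCA was in none of the 8 and in 4.4% of all promoters. The CArG box, to which SRF binds, was in Zfp36 and in 1.4% of all promoters, and TATAAA was in Fos and in 13.0%. These are matches of letters and not measured binding. Elements farther than 250 bases from the start were not searched, so a gene without a match can still have the element.

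The AP-1 genes were compared first. Fos (chromosome 12, 86814840 to 86818223, plus strand, 4 merged exons), the partner that is rarely expressed without a stimulus, had 2049.9 normalized CPM in female pool 1 and 1402 in female pool 2, against 990.4 in male pool 1 and 1085 in male pool 2. Both male pools were below both female pools, and the male pools lay close together while the female pools were spread (1726 ± 458 in females, 1038 ± 66.7 in males, SD, n = 2). The log2 fold change of male over female was -0.73 (standard error 0.46, unadjusted p = 0.159 in the quasi-likelihood test of edgeR). Fosb (chromosome 7, 19888070 to 19895394, minus strand, 4 merged exons), a paralogue of Fos, had 98.7, 105.9, 48.0 and 104.7 normalized CPM in female pool 1, female pool 2, male pool 1 and male pool 2, the order used from here on. Only male pool 1 was low, and male pool 2 lay between the female pools. Its log2 fold change was -0.43 (standard error 0.44). In this bulk RNA, fewer cells of a type and less RNA per cell cannot be told apart.

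Jun (chromosome 4, 94715725 to 94718913, minus strand, 1 exon) had 767, 511, 366 and 296 normalized CPM, so that the sexes did not overlap. Its log2 fold change of -0.95 (standard error 0.43) had the lowest unadjusted p of the 10 genes, 0.0667 in edgeR. Jun shares 232 exonic bases with BC042782 on the opposite strand, and whether reads were assigned by strand is not given in the sources used here, so reads of the pair cannot be told apart. Junb (chromosome 8, 87500811 to 87502617, minus strand, 1 exon) had 1597, 1828, 1562 and 919.9 normalized CPM. Male pool 1 was 0.03 log2 units below female pool 1, and only male pool 2 was clearly lower. Its log2 fold change was -0.46 (standard error 0.49), which became -0.12 with male pool 2 left out and -0.91 with male pool 1 left out.

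Atf3 (chromosome 1, 192994175 to 193007219, minus strand, 4 merged exons) varied more between pools than the other 9 genes. It had 890.2, 517, 271 and 411 normalized CPM, a 3.28-fold range between female pool 1 and male pool 1. Both male pools were below both female pools (704 ± 264 in females, 341 ± 98.8 in males), and the log2 fold change was -1.04 (standard error 0.48).

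Of the other induced transcription regulators, Egr1 had the same order of pools as Atf3, and Nr4a1 was lowest in the same pool as Junb. Egr1, a zinc finger factor, had 807, 499.8, 387 and 447 normalized CPM, with no overlap between the sexes, and a fitted log2 value of -0.65 (standard error 0.44). It shares 8 exonic bases with Gm17507 on the opposite strand. Nr4a1 (chromosome 15, 101097277 to 101105223, plus strand, 7 merged exons), an orphan nuclear receptor, had 905, 1202, 1021 and 623 normalized CPM. Male pool 1 lay between the female pools, and male pool 2 was the lowest. Its log2 fold change was -0.36 (standard error 0.48), which became -0.04 with male pool 2 left out and -0.77 with male pool 1 left out. Ier2 (chromosome 8, 87185230 to 87186751, minus strand, 1 exon) was the steadiest of the 10, with 479, 541, 466 and 395 normalized CPM and a 1.37-fold range over the pools. Its log2 fold change was -0.25 (standard error 0.40), and its sexes did not overlap on the TMM scale.

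The feedback genes Dusp1 and Zfp36 were both among the more abundant of the set. Dusp1 (chromosome 17, 26642535 to 26645464, minus strand, 2 merged exons) had 1525, 995, 630.1 and 673 normalized CPM, with both male pools below both female pools (1259.9 ± 374 in females, 651 ± 30.1 in males). The log2 fold change was -0.95 (standard error 0.46). Zfp36 (chromosome 7, 29161803 to 29164274, minus strand, 2 merged exons) had 1614, 1186, 738 and 850.2 normalized CPM, again without overlap, and a fitted log2 value of -0.82 (standard error 0.45).

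Because ZFP36 binds AU-rich elements, the 3′ UTRs of the annotated transcripts were searched on the sense strand for the nonamer TTATTTATT, shown in capitals with 10 bases on each side.
Dusp1 (bases 103 to 111 of the 3′ UTR): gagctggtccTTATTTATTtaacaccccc
Fos (bases 655 to 663): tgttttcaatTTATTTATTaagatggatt
Zfp36 (bases 589 to 597): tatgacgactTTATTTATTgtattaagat
The nonamer was present in these 3 of the 10 genes, with 2 matches in Dusp1, and in 7.5% of the 10014 tested genes with an annotated 3′ UTR. The shorter element ATTTA, which the nonamer contains, had a median density of 3.56 per kilobase in the 10 genes and of 1.18 per kilobase in those 10014 genes. Ier2 had none, and Dusp1 had the highest density with 5.8 per kilobase.

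Of the 10 immediate early genes, 0 passed an adjusted p of 0.05 between males and females by the quasi-likelihood test of edgeR, where 0% of the 10865 tested genes did. At an unadjusted p under 0.05 the count was also 0 of 10, against 48 genes (0.442%) in all. Unadjusted p ran from 0.0667 (Jun) to 0.559 (Ier2) in edgeR, and the adjusted p was 1 for each of the 10 genes. Of them, 0 were among the 3 genes called by DESeq2 or the 8 called by edgeR's exact test. With pool number as a replicate block 17 genes were called over all genes, and 0 of the 10 were among them. With 2 pools per sex and a common biological coefficient of variation of 0.349, a difference of this size was not separable from the spread between pools. The quasi-likelihood test of edgeR did not call Ddx3y, a gene of the Y chromosome, either (log2 fold change 10.5, adjusted p = 0.186). Absence of a call is therefore not evidence that a gene is equal between the sexes. The fitted value of the immediate early genes was below 0, lower in males, for 10 of 10, where this held for 46.8% of all genes. Their median log2 fold change was -0.69, beside 0.027 over all genes, and single values ran from -1.04 (Atf3) to -0.25 (Ier2). Both male pools were below both female pools for 8 of the 10, all but Fosb and Nr4a1, compared with 11.7% of all tested genes. The 10 genes respond to shared signals and are not independent observations, and the 4 libraries are the same for each. The genes were also chosen with earlier results of these data known, so these counts are a description and not a test.

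**Figure D2:**
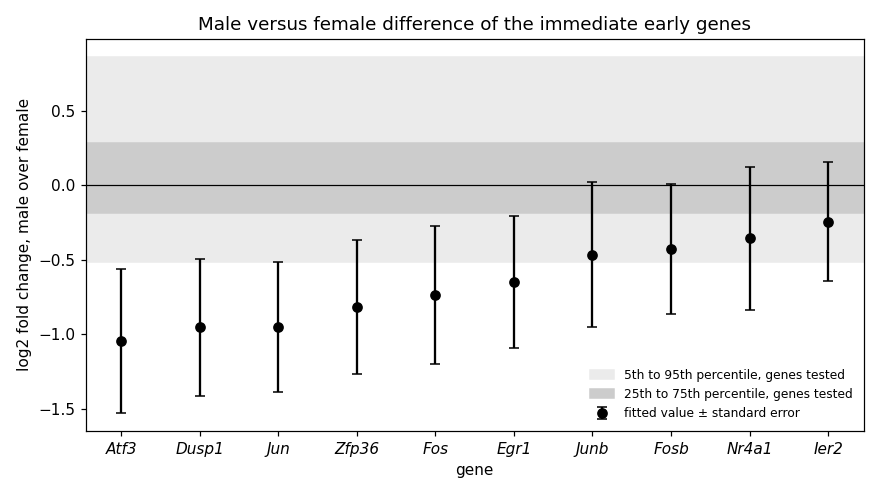
Fitted log2 fold change of male over female (y axis) with its standard error for each of the 10 genes (x axis), over bands that hold the middle 50% and 90% of all tested genes. Every point is below 0, and the 6 lowest, Atf3 to Egr1, lie under the 5th percentile of all genes (-0.51).

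Set against the pool of the same number, male pool 1 was lower than female pool 1 for 9 of the 10 genes, with Nr4a1 the exception (0.17), and male pool 2 was lower than female pool 2 for 10 of 10. Of all tested genes, 51.2% and 50.2% were lower in the male pool of these pairs. The median log2 difference of the 10 genes was -1.05 in the first pair of pools and -0.47 in the second, beside -0.0089 and -0.0044 over all genes. Scaled by library size alone, 10 of 10 fitted values stayed below 0, against 54.9% of all genes. On that scale 7 of the 10 genes were without overlap, against 8.94% of all genes. Fosb joined the genes without overlap, and Junb and Ier2 left them. Without male pool 1, 9 of 10 fitted values were below 0, and Fosb was at 0.024. Without female pool 1 the value moved to -0.26 for Egr1, -0.43 for Fos, -0.60 for Atf3, -0.61 for Dusp1 and -0.63 for Jun, and without male pool 2 that of Ier2 moved to -0.12.

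Within a sex, the pools differed by gene, and the order of the 4 pools was not the same for all 10 genes on the TMM scale. Fos, Jun, Egr1, Dusp1, Atf3 and Zfp36 were highest in female pool 1. Fosb, Junb, Ier2 and Nr4a1 were highest in female pool 2. Among males, Fos, Fosb, Egr1, Dusp1, Atf3 and Zfp36 were lowest in pool 1, and Jun, Junb, Ier2 and Nr4a1 in pool 2. The change from pool 1 to pool 2 therefore had the opposite sign in females and males for 8 of the 10 genes, where this was so for 33.8% of all tested genes. In Atf3, for example, the log2 difference of pool 2 minus pool 1 was -0.78 in females and 0.60 in males, and in Nr4a1 it was 0.41 and -0.71. Jun was lower in pool 2 in both sexes (-0.59 and -0.30) and Fosb higher in both (0.10 and 1.12). This count depended on the scaling. With library size alone only 3 of the 10 genes had opposite signs, against 34.7% of all genes, and the TMM factor farthest from 1 was that of male pool 2.

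**Figure D3:**
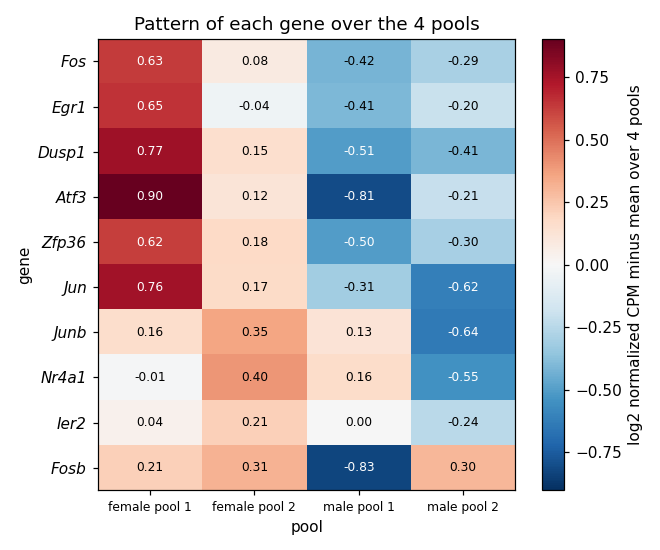
Log2 normalized CPM of each gene (rows) in each pool (columns), minus the gene's mean over the 4 pools. Values run from 0.90 (Atf3, female pool 1) to -0.83 (Fosb, male pool 1), and the first 5 rows share a high female pool 1 and 2 low male pools.

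The labels number the pools 1 and 2 in each sex without saying what the number stands for, and pool 2 was compared with pool 1 over both sexes to see how far the libraries differed apart from sex. In this comparison 221 genes (2.03%) passed an adjusted p of 0.05 by the same edgeR test. In pool 2, 202 of them were higher and 19 lower. In all, 2571 genes had an unadjusted p under 0.05, the called genes included. None of the 10 immediate early genes was among either set, a count of 0 of 10 at both thresholds, and 0 of them were among the 651 genes called by DESeq2 or the 1138 called by the exact test. Their log2 fold changes of pool 2 over pool 1 ran from -0.49 (Jun) to 0.53 (Fosb), with a median of -0.25 beside -0.03 over all genes. Adjusted p ran from 0.366 to 0.982 in edgeR. Without female pool 1 their median was 0.30, so a single library turned its direction. Under library size alone the split of the called genes was 376 higher and 388 lower, and the median of all genes moved to -0.35, so directions between pools are relative to the scaling.

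Heat shock genes, which encode chaperones and are also induced by cell handling, were set beside them. Of 14 tested, 5 were higher in pool 2 at the adjusted threshold and 0 were lower. Among all tested genes, 2.03% were called in either direction. Bag3, a co-chaperone, had 17.1, 98.0, 14.6 and 97.0 normalized CPM, and its fitted value for pool 2 over pool 1 was 2.63 on the log2 scale (standard error 0.24, adjusted p = 0.0202, edgeR). Both pools numbered 2 were high, and the pools numbered 1 were low in either sex. Hspb1, a small heat shock protein, rose by 2.63 (standard error 0.36), Hspa1a by 1.86 (0.30), Hspa1b by 1.73 (0.29) and Hsph1 by 1.63 (0.34) on the log2 scale, with adjusted p of 0.0391 for the first 3 and 0.049 for Hsph1. Hspa1a and Hspa1b are near-identical copies, and reads that align to both are not counted, so their separate values are uncertain. The constitutive chaperones Hspa8 and Hsp90ab1, the first with 3992 normalized CPM on average, had log2 fold changes of -0.17 and -0.02, and those of Hspa5 and Hspe1 were -0.56 and 2.19 (adjusted p = 0.397 and 0.0675). Between males and females 0 of the 14 heat shock genes passed the adjusted or the unadjusted threshold in edgeR's test. Of the 14, 5 were below 0 (7 when scaled by library size alone), and the median log2 fold change was 0.08. Both male pools were below both female pools for 0 of them and above for 3, where 9.47% of all tested genes were above.

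**Figure D4:**
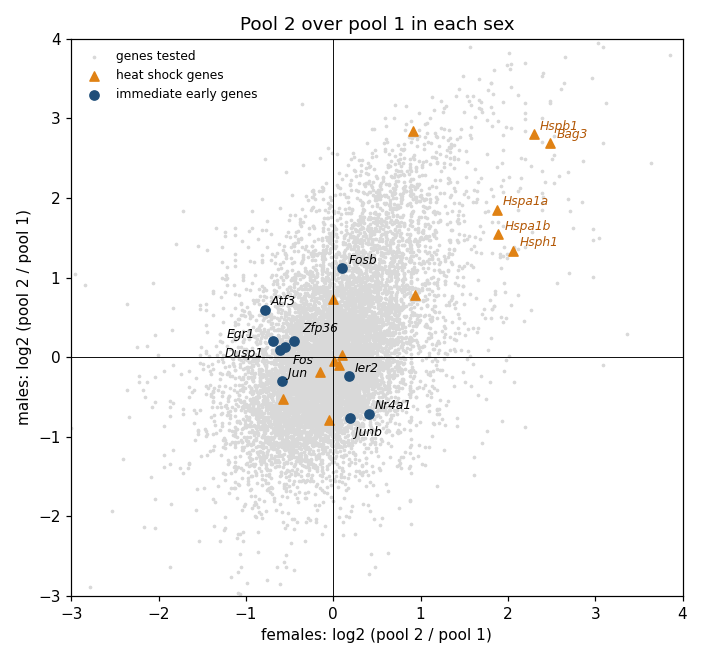
Log2 of pool 2 over pool 1 in females (x axis) and in males (y axis) for all tested genes (grey), heat shock genes (triangles) and immediate early genes (circles), with 30 genes outside the plotted range. Bag3, Hspb1, Hspa1a, Hspa1b and Hsph1 lie at the upper right, and 8 of the 10 immediate early genes lie in the quadrants of opposite sign.

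Companion genes of the same response were counted from lists chosen by function. The shares of all tested genes to read these counts against are the 46.8% below 0 in males over females and the 11.7% with both male pools below both female pools (54.9% and 8.94% when scaled by library size alone). The other EGR, NR4A and KLF factors were listed together with Nab1 and Nab2. In this list 11 of 11 tested were below 0 in males over females (median log2 fold change -0.25). Both male pools were below both female pools for 4 of them (5 when scaled by library size alone), and 0 passed the adjusted threshold in edgeR's test. Klf2, a factor of quiescent lymphocytes and endothelium, had 709, 325, 153 and 202 normalized CPM, and its fitted value of -1.54 (log2, standard error 0.51) was the sole value of these lists with an unadjusted p under 0.05 (0.0199). Both male pools were low, and female pool 1 stood above the other 3 pools. Klf6 had 1222, 552, 388 and 487 normalized CPM and a fitted log2 value of -1.02 (standard error 0.52). The values of Nr4a2 and Klf4 were -0.25 each.

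Of the other AP-1 and bZIP factors, 6 of 10 were below 0 (median -0.08), a share near that of all genes. Both male pools were below both female pools for 2 of them (1 when scaled by library size alone) and above for 1. Jund, the member of the JUN family that is expressed without a stimulus, had 782, 480.01, 426 and 250.3 normalized CPM and a fitted log2 value of -0.90 (standard error 0.49). Atf4, the factor of the integrated stress response, was at -0.06, Batf at 0.21 and Batf3 at 0.64. Batf3, which dendritic cells of the cross-presenting lineage require, was the 1 gene of this list called between pools, with 38.1, 114, 30.5 and 208 normalized CPM and a difference of pool 2 over pool 1 of 2.24 on the log2 scale (standard error 0.33, adjusted p = 0.0391, edgeR).

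Other feedback inhibitors were below 0 for 14 of 17 (median -0.44), and 4 had both male pools below (3 when scaled by library size alone). Nfkbia, the inhibitor of NF-kB that NF-kB itself induces, was above every one of the 10 immediate early genes per length (1908 RPKM) and had 3854, 3134, 1753 and 3297 normalized CPM, so that only male pool 1 was low. Ppp1r15a, which restores translation after stress, had 1159, 799.7, 584 and 456 normalized CPM and a fitted log2 value of -0.91 (standard error 0.45), with both male pools below both female pools. The log2 fold change was -0.41 for the MAP kinase phosphatase gene Dusp2 and -0.01 for Zfp36l1, a relative of Zfp36. Early growth and stress response genes were below 0 for 17 of 20 tested (median -0.30), with both male pools below for 5 (8 when scaled by library size alone) and with -0.24 for Gadd45b, -0.26 for Btg1, 0.45 for Btg2 and -0.28 for Mcl1. The kinases and factors upstream of the response were below 0 for 17 of 20 tested (median -0.24), with both male pools below for 7 (5 when scaled by library size alone), above for 1, and with -0.57 for Mapkapk2, -0.18 for Map2k2 and -0.21 for Map2k1. In edgeR's test 0 genes of these 3 lists passed the adjusted or the unadjusted threshold between the sexes, and 0 passed the adjusted threshold between pools.

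The sort was then checked against marker genes, since immediate early genes are not specific to a cell type. Of 16 mTEC genes 15 had reads, with summed levels of 929, 1220.0, 901.5 and 1122 normalized CPM. Cd40 was the most abundant (348 on average), and per length Spint2 led, before Cd40, Krt8 and Krt18. Cd40 is not exclusive to mTECs, and which cells the reads of this list came from was not tested. Aire, the transcription factor that defines mature mTECs, had 19.3, 31.7, 19.7 and 28.9 normalized CPM. Ccl21a was at 0 in every pool. Markers of cells that the CD45- gate should remove were also present. Ptprc, which encodes CD45, had 279.98, 179.6, 304.2 and 219 normalized CPM.

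B cell genes summed to 4595, 3072, 3784 and 2549 normalized CPM, more than the mTEC list in every pool, with reads for 8 of 8 and Cd79a as the most abundant (1823 on average), ahead of Cd79b and Ms4a1. Female pool 1 was the highest for this list, as it was for Fos, Jun, Egr1, Dusp1, Atf3 and Zfp36, and male pool 2 was the lowest for the list. Of these immediate early genes, only Jun was also lowest in male pool 2 on the TMM scale. All 7 tested B cell genes were below 0 in males over females (median log2 fold change -0.32), 0 of them without overlap and 0 past either threshold. The count below 0 was 7 of 14 for the mTEC list (median 0.02), 5 of 11 for the dendritic cell and macrophage list (median 0.01), 2 of 4 for cortical epithelial genes and 4 of 4 for endothelial genes, 2 of these with both male pools below. It was 1 of 7 for neutrophil genes and 0 of 3 for fibroblast genes. Scaled by library size alone, the count became 9 of 11 for the dendritic cell and macrophage list and 8 of 14 for the mTEC list. On that scale 54.9% of all tested genes were below 0. The counts of the other marker lists in this paragraph stayed the same. Dendritic cell and macrophage genes summed to 2290.0, 3890.0, 1701 and 5059, with reads for 11 of 11 in the table and Lyz2 the most abundant (1931). Next per length were C1qa, Cd68 and Flt3. C1qa was higher in pool 2 by 1.97 (standard error 0.33, adjusted p = 0.0391, edgeR). On the TMM scale male pool 1, the pool with the lowest sum, was also the lowest for Fos, Fosb, Egr1, Dusp1, Atf3 and Zfp36. Male pool 2 had the highest sum of this list, and no immediate early gene was highest there.

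Thymocyte and T cell genes summed to 642, 486, 1304 and 542.5 normalized CPM, with 10 of 10 detected, Cd2 the most abundant (202), and Cd3g, Lck and Cd8a next per length. Of 8 tested, 1 was below 0 in males over females. Neutrophil genes summed to 73.4, 64.8, 236 and 241, with reads for 9 of 9 in the table. S100a9 (55.3 on average) was the most abundant by normalized CPM, and S100a8, Camp and Ngp were the others of the first 4 per length. Fibroblast genes, among them Dcn (38.5), Mfap5, Col3a1 and Lum, summed to 15.2, 48.5, 81.5 and 92.8. Both of these sums were higher in each male pool than in each female pool, opposite to the immediate early genes. Endothelial genes (Pecam1 at 20.6, with Eng, Kdr and Vwf) summed to 33.4, 40.6, 34.5 and 30.03, and Emcn was at 0 in every pool. Cortical epithelial genes (Ly75 at 28.1, with Ccl25, Psmb11 and Dll4) summed to 81.6, 83.6, 69.9 and 102. In edgeR's test 0 genes of these lists passed the adjusted threshold between the sexes. At an unadjusted p under 0.05 the count was 2 of 8 for T cell genes, 3 of 7 for neutrophil genes and 1 of 3 for fibroblast genes, against the 0.442% of all tested genes. The part of these cells in the levels of the immediate early genes was not tested.

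**Figure D5:**
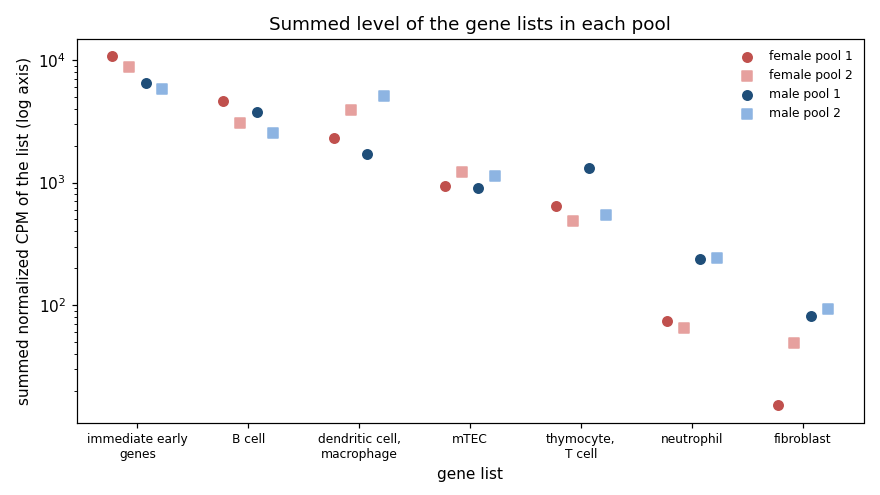
Summed normalized CPM (y axis, log scale) of the immediate early genes and of the marker lists (x axis) in each pool. The immediate early genes fall from female pool 1 (10733) to male pool 2 (5805), the B cell list exceeds the mTEC list in every pool, and the neutrophil and fibroblast lists are higher in both male pools.

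The labels of sex held in the libraries. Xist had 94.9, 54.9, 0.836 and 6.93 normalized CPM, and Ddx3y, on the Y chromosome, had 0 counts in both female pools (a count of 0 allows up to 0.815 and 1.48 normalized CPM) but 53.2 and 34.3 in those of males.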

How the data were processed

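PolyA RNA of mTECs from 4 pools was sequenced. The authors deposited raw counts per gene from HTSeq. The alignments came from TopHat2, with mm9 (NCBIM37) as the reference, after filtering for read quality by Trimmomatic. Versions, gene annotation and strand setting are not given in the sources used here. The 5 rows of unassigned reads, which hold 66.9% to 70.2% of a pool's counts, were left out.

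Everything else was computed from the counts with edgeR 4.0.16 (quasi-likelihood test, TMM, filterByExpr with a minimum count of 10, prior count 0.125, Benjamini-Hochberg at 0.05, two-sided, over all genes tested), DESeq2 1.42.0, R 4.3.3, Python 3.11.15, pandas 2.3.3 and scipy 1.17.1. The fits were tested on simulated data. A standard error is the fitted log2 value over the root of the F statistic. RPKM is normalized CPM per kilobase of merged exons, which 90.9% of symbols had. All pairs of pools differed beyond sampling noise. The chi-square per degree of freedom was lowest between female pool 1 and male pool 1 (10.1) and highest between the male pools (89.9).

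All 10 members are named, in other lists the 4 members with the highest RPKM and any past the adjusted threshold. Aire, Ptprc, Xist, Ddx3y and markers at 0 were named outside this rule, as checks of the labels, and the overlapping genes for their position. Some genes that the rule covers are not reported here. The members and lists were chosen with earlier results of these data known. Alternatives were other scalings, filters and tests, a block, longest transcripts and each pool left out.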

Additional observations from a re-analysis of the deposited data

Results flagged for a closer look

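For 8 of the 10 immediate early genes the change from pool 1 to pool 2 ran one way in females and the other way in males. The gap, log2 of male pool 2 over male pool 1 minus log2 of female pool 2 over female pool 1, was 0.679 for Fos, 0.898 for Egr1, 0.709 for Dusp1, 1.381 for Atf3 and 0.649 for Zfp36, which were lower in pool 2 of females and higher in pool 2 of males. It was -0.959 for Junb, -0.416 for Ier2 and -1.121 for Nr4a1, which were higher in pool 2 of females and lower in pool 2 of males. With 1 library per sex and number, these differences were not tested. Scaled by library size alone, 3 of the 10 genes had opposite signs.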

How the results depend on the processing

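Between males and females, the 10 genes kept a median log2 fold change below 0 under each alternative, from -0.95 (without female pool 2) to -0.55 (without female pool 1), and none was called. Single genes kept their direction and side of the threshold in 109 of 110 values. The exception was Fosb, which ran from -1.08 (male pool 2 left out) to 0.024 (male pool 1 left out). The sizes moved more. With 1 pool left out, the male over female value ran from -1.37 to -0.60 for Atf3, -1.20 to -0.63 for Jun, -1.21 to -0.61 for Dusp1, -1.004 to -0.58 for Zfp36, -0.96 to -0.43 for Fos and -0.93 to -0.26 for Egr1, each smallest without female pool 1. It ran from -0.91 to -0.12 for Junb, -0.77 to -0.04 for Nr4a1 and -0.38 to -0.12 for Ier2, each largest without male pool 1 and smallest without male pool 2. The lowest adjusted p of a member was 0.18, also without male pool 1. Over all genes, 0 calls in the main comparison became 5 when scaled by library size alone, 26 without the filter, 3 with DESeq2, 8 with the exact test, 17 with pool number as a replicate block, and 0 to 646 with 1 pool left out (646 without male pool 1). Over 10865 genes the change from pool 1 to pool 2 correlated between the sexes (r = 0.519, 2 pairs), but the labels say no more than the number. Between pools, 221 calls became 764 when scaled by library size alone, 1504 without the filter, 651 with DESeq2, 1138 with the exact test, 807 with sex as a block, and, with 1 pool left out, 174 at the lowest (male pool 1 left out) and 2620.0 at the highest (female pool 2 left out). Members called ran from 0 to 1, the one being Junb without female pool 2 (adjusted p = 0.049, edgeR), and their median went to -0.71 when male pool 1 was left out and to 0.30 when female pool 1 was. With 1 pool left out, the log2 fold change of pool 2 over pool 1 ran from 0.08 (male pool 1 left out) to 1.12 (female pool 1 left out) for Fosb, -0.73 to 0.32 for Fos, -0.94 to 0.14 for Jun, -0.75 to 0.21 for Junb, -0.78 to 0.28 for Egr1, -0.23 to 0.19 for Ier2, -0.88 to 0.40 for Dusp1, -0.95 to 0.77 for Atf3, -0.60 to 0.31 for Nr4a1 and -0.68 to 0.46 for Zfp36, and DESeq2 gave 0.017 for Ier2. A lone pool was assumed to vary like the others. The cause was not tested. The order of levels was the same under other scalings and without male pool 2, and otherwise Fos and Zfp36, or Nr4a1, Dusp1 and Ier2, changed places. With 1976272 counted reads, female pool 2 was the shallowest library.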
